A study of Rattus norvegicus with 6 samples.

Results

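The 9 genes described here are the interferon-induced Ifi27, Ifi35, Mx1 and Mx2, the transcription factor Irf1, and Psmb8, Psmb9, Psmb10 and Tap1. They were taken as every probe set whose platform annotation gives 1 of these symbols, which found 11 of the 31099 probe sets on the array, 2 each for Mx2 and Tap1 and 1 for each of the other genes. The rule uses the symbols and no measured value, but the 9 genes were proposed with results of these data known.

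Interferon-stimulated genes are switched on when interferons bind their receptors and JAK kinases activate STAT transcription factors, which act with IRF proteins on elements in the promoters of these genes. A subset supplies peptides to MHC class I molecules: the immunoproteasome subunits Psmb8, Psmb9 and Psmb10 replace 3 catalytic subunits of the standard proteasome, and the transporter Tap1 pairs with Tap2 to carry the peptides into the endoplasmic reticulum. Neural cells are known for low levels of MHC class I, and glucocorticoids are best known as inhibitors of inflammatory genes.

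The cells were neuronal progenitors from cerebral cortices of rat embryos at E15.5, grown on fibronectin with 20 ng/ml bFGF, a mitogen for them. For 48 h they were given either the solvent DMSO (vehicle) or 1 µM of the rat stress hormone corticosterone, a glucocorticoid. The labels mention no interferon. Total RNA of 6 samples was hybridised to 1 Affymetrix array each, in 3 couples of 1 vehicle and 1 corticosterone array. The labels name no strain, no sex and no separate animals or cultures. The only replication is therefore these 3 couples, whose spread may be technical. Each p-value weighs the spread of that probe set among the couples together with the spread of other probe sets.

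The deposited signals carried the markers of the labelled cell type. Each of the 8 neural progenitor markers measured, among them Sox2, Nes, Fabp7 and Pax6, lay above the background signal of 22.8 on all 6 arrays. That background was set from the 27 probe sets for bacterial spike-in controls, as their 95th percentile. It is a low bar, since 75.3% to 80.6% of all probe sets on an array lay above it. Passing it therefore does not by itself identify the cells. Over the 6 arrays Sox2 gave 7528 to 9935, and Hes5, a dimmer marker of the 8, gave 142 to 275. Median signals were 108 to 122 on the vehicle arrays and 124 to 134 on the corticosterone arrays, so that low signals as a whole were somewhat higher with corticosterone. Some markers of fibroblast and meningeal cells, Col1a1, Col1a2, Col3a1 and Lum, stood apart in couple 2. Others did not: vehicle signals of Acta2 (226, 159 and 223) and Cspg4 (376, 215 and 496) were lowest in couple 2. Col1a1 had 268 on the vehicle array and 344 on the corticosterone array of couple 2, and 31.2 to 82.0 on the other 4 arrays. The summed signal of the 11 meningeal, pericyte and fibroblast markers measured was 746 to 1845 with vehicle and 1066 to 2973 with corticosterone. It was highest in couple 2 in both groups and higher with corticosterone in all 3 couples. The single markers were divided in couple 3. There Acta2 (223 to 331), Cspg4 (496 to 557) and Col1a2 (32.1 to 57.4) were higher with corticosterone. Col1a1 (45.6 to 31.2) and Col3a1 (93.7 to 61.9) were lower. Of the 11 markers 5 were tested, of which 2 rose, 0 fell (0 lower by raw limma p under 0.05) and 3 did not pass. Among all genes tested 11.7% rose. The 2 were Acta2, a smooth muscle actin of pericytes, and the collagen gene Col1a2 (1.03 and 0.99, limma adjusted p = 0.0027 and 0.013). Col1a1, Col3a1 and Cspg4 did not pass, with log2 fold changes of 0.24, 0.35 and −0.22. Results that rest on couple 2 are therefore given without it as well. In a bulk sample, more cells that express a gene and more RNA per cell cannot be told apart.

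The promoters are shown first, since these genes are known for elements that STAT and IRF proteins bind. RefSeq windows of the GRCr8 build, from 250 bases before to 50 bases after the start site, were matched by gene identifier for 8 of the 9 genes. The 7 printed here hold 1 of the 2 interferon-related elements below, or belong to Ifi35 and Psmb9, whose signals rose. They are written 5′ to 3′ in the direction of transcription, with matches to GAAANNGAAA, the core of the interferon-stimulated response element (ISRE), and to TTCNNNGAA, the GAS element of STAT dimers, in capitals. The windows lie at chr6:128355062-128355361, plus strand, for Ifi27; chr10:86881020-86881319, plus strand, for Ifi35; chr20:4656982-4657281, minus strand, for Psmb8; chr20:4668750-4669049, plus strand, for Psmb9. The others are chr19:50743243-50743542, minus strand, for Psmb10, chr20:4668494-4668793, minus strand, for Tap1, and chr10:38417685-38417984, plus strand, for Irf1.
Ifi27: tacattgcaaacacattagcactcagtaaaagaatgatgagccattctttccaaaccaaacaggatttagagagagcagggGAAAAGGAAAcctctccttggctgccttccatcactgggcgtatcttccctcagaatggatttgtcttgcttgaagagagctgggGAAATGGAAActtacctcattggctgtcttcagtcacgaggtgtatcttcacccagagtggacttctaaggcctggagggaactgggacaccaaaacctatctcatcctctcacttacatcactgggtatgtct
Ifi35: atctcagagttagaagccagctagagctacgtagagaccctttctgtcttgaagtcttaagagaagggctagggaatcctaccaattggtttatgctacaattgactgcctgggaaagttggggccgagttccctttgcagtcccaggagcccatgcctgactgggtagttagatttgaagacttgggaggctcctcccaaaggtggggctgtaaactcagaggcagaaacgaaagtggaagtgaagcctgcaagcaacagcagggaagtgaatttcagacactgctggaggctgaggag
Psmb8: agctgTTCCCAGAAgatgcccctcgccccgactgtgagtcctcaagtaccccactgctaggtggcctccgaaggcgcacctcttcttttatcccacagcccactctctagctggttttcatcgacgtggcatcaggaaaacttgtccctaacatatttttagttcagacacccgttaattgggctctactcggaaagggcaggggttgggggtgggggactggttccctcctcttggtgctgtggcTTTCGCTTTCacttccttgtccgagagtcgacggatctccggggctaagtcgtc
Psmb9: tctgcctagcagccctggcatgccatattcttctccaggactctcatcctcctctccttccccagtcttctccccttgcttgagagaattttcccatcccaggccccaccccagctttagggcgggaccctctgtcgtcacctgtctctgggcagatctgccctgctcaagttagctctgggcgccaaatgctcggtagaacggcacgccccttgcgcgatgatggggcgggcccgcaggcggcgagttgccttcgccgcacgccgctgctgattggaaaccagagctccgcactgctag
Psmb10: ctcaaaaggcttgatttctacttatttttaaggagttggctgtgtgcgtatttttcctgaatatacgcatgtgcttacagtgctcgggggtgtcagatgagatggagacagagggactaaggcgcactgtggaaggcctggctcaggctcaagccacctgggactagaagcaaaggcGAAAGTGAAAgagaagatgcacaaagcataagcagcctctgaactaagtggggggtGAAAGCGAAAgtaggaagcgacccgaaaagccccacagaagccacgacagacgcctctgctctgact
Tap1: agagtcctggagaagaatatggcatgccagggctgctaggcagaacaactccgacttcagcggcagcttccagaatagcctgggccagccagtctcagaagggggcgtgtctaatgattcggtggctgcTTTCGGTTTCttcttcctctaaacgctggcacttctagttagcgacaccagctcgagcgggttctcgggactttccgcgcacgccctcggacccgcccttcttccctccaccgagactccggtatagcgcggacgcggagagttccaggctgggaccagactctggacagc
Irf1: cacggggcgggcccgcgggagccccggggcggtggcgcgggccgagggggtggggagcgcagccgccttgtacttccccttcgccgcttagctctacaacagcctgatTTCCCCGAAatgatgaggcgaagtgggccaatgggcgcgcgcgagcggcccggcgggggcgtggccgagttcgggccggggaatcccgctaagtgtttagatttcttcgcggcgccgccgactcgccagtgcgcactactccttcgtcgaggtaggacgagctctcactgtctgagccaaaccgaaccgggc

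An ISRE core stood in 4 of the 8 windows, on either strand, against 3.92% of all 33469 promoter windows. Ifi27 held 2 matches, GAAAAGGAAA from 169 and GAAATGGAAA from 84 bases before the start. Psmb10 also held 2, GAAAGTGAAA from 73 and GAAAGCGAAA from 17 bases before it. Psmb8 and Tap1 each held 1 on the opposite strand, from 4 and 121 bases before the start. A GAS element was found in Psmb8 and Irf1, against 8.87% of all windows, in Irf1 as TTCCCCGAA from 142 bases before the start. The full glucocorticoid response element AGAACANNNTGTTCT was in 0 of the 8 windows and in 0.0149% of all. Its single hexamer AGAACA, read on both strands, was in those of Tap1 and Mx1 and in 20.7% of all. The NF-kB element GGGANTTNCC, also read on both strands, was in that of Tap1 alone among the 8 and in 1.11% of all. The same element names therefore cover genes whose signals rose (Ifi27) and genes whose signals did not pass the test (Psmb10, Tap1). Psmb9 and Tap1 are known as neighbours that are read in opposite directions, and their windows share 44 bases. The ISRE core and the NF-kB match of Tap1 lie between the start sites of these genes. They are upstream of Psmb9 too, but beyond the 250 bases that its window covers. A match is a description of the letters and shows no binding.

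**Figure D1:**
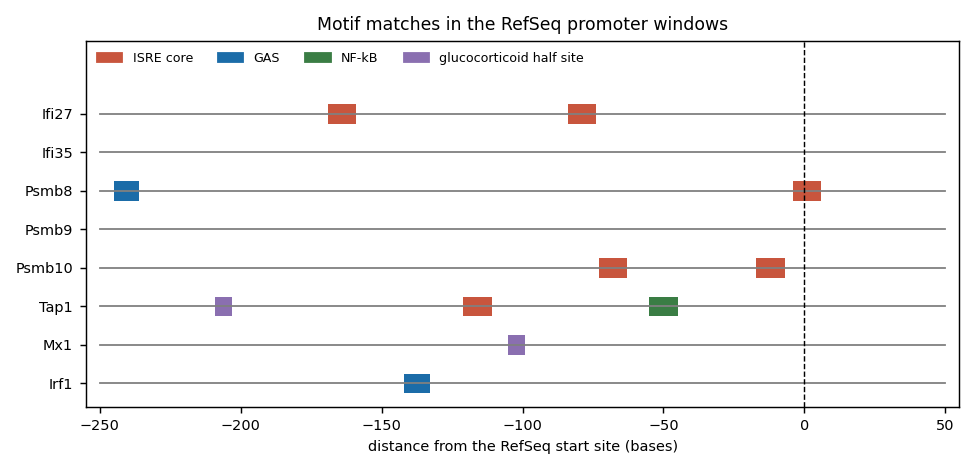
Motif matches in the RefSeq promoter windows of 8 genes, by distance in bases from the start site (dashed line, negative values upstream); coloured boxes are matches to the ISRE core, the GAS element, the NF-kB element and the glucocorticoid hexamer. ISRE cores stand in Ifi27, Psmb8, Psmb10 and Tap1, and the windows of Ifi35 and Psmb9 hold none of the elements searched.

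The comparison asks which of these transcripts corticosterone changed. Signals of Ifi35, Psmb9, Ifi27 and Mx2 rose, and those of Irf1, Psmb10 and Tap1 did not pass the test. Psmb8 was higher in each couple but too dim to be tested, and Mx1 stayed near background. Of the 11 probe sets 7, for 7 genes, passed a filter at a mean signal of 63.6, which dropped the dimmest 40%. Each was fitted with limma on log2(signal + 28.6), with treatment and couple as terms. At an adjusted p under 0.05 over all 18625 probe sets tested, 4 of the 7 were higher and 0 were lower (4 and 0 also by raw limma p under 0.05). Of all probe sets tested 15.9% passed in either direction and 9.40% were higher. Since members were picked with results of these data known, the counts describe them and are no test.

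**Figure D2:**
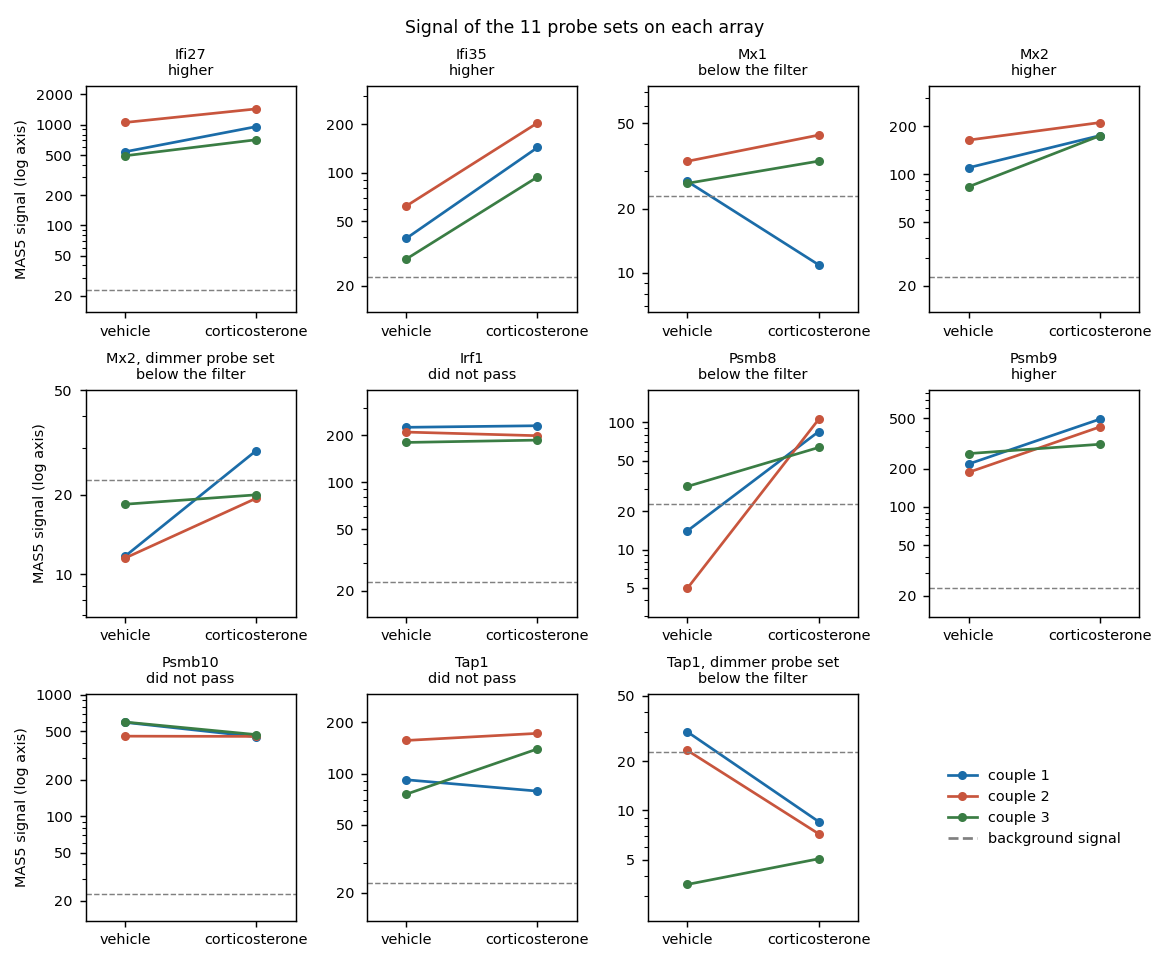
MAS5 signal (log axis) of each of the 11 probe sets on the vehicle and the corticosterone array, with a line for each of the 3 couples and the background signal of 22.8 dashed. Lines of Ifi27, Ifi35, Psmb8, Psmb9 and both Mx2 probe sets slope upwards in all 3 couples, the dimmer Mx2 set near background. Those of Irf1 are nearly level.

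Ifi35, an interferon-induced leucine zipper protein, had the largest fold change of the members tested. Its signals were 39.2, 62.3 and 29.2 with vehicle in couples 1, 2 and 3 and 144, 204 and 94.3 with corticosterone. Every corticosterone array lay above every vehicle array, and the ratio within a couple was 3.66, 3.28 and 3.23. The log2 fold change was 1.26 ± 0.19 (SE; limma adjusted p = 0.0011). The vehicle signals alone lay under the filter, so Ifi35 was tested because its corticosterone signals were high, and its call is read with that in mind. Without couple 2 it was 1.22 (limma adjusted p = 0.029). In the model without the couple it did not pass (limma adjusted p = 0.055).

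Ifi27, a small interferon-induced membrane protein of mitochondria and nuclear envelope, rose within each couple from very different levels. Vehicle signals were 539, 1053 and 492, and corticosterone signals 958, 1437 and 709.6. The groups overlapped, because the vehicle array of couple 2, the couple with the high collagen signals, was above the corticosterone arrays of couples 1 and 3. The ratio within a couple was 1.78, 1.36 and 1.44, and the log2 fold change 0.58 ± 0.10 (SE; limma adjusted p = 0.0020). Without couple 2 the fold change was 0.65 (limma adjusted p = 0.018), as large as with it. In the model without the couple Ifi27 did not pass (limma adjusted p = 0.40), since the spread between couples then counts as error.

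The Mx genes encode dynamin-like GTPases that block viruses and are classic readouts of type I interferon. The brighter Mx2 probe set gave 110, 163 and 83.4 with vehicle and 174, 210 and 174 with corticosterone. The groups did not overlap, although the vehicle array of couple 2 came close to the corticosterone arrays of couples 1 and 3. The log2 fold change was 0.57 ± 0.16 (SE; limma adjusted p = 0.035). This call was the least stable of the 4: it was lost without couple 1, 2 or 3 (limma adjusted p = 0.096, 0.088 and 0.14), without the couple term (0.23), without the filter (0.11), with median centring (0.064), with quantile normalization (0.072) and without the intensity trend (0.0596). The other Mx2 probe set lay under the filter, with 11.7, 11.5 and 18.4 against 29.5, 19.4 and 20.0, at or below background on 5 of the 6 arrays. Mx1 gave 26.8, 33.2 and 26.2 with vehicle and 10.9, 44.05 and 33.3 with corticosterone, lower in couple 1 and higher in couples 2 and 3. It was not tested, and the groups overlapped. Mx1 and Mx2 are close paralogs, and whether their probes cross-hybridise was not tested.

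Irf1, the transcription factor through which interferon gamma induces many antigen-processing genes, had nearly equal signals in both groups. Its signals were 226, 210 and 180 with vehicle and 231, 199 and 187 with corticosterone. The log2 fold change was 0.0019 ± 0.13 (SE; limma adjusted p = 0.99), with a 95% interval from −0.29 to 0.29. Its sign followed the scaling, at −0.10 with each array centred on its median and −0.07 with quantile normalization.

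Of the 3 immunoproteasome subunits 1 rose, 1 did not pass and 1 was too dim to test. Psmb9 (LMP2) had 218, 188 and 264 with vehicle and 493, 428 and 312 with corticosterone. The groups did not overlap, but the ratio within a couple was 2.26, 2.28 and 1.18, so that couple 3 showed little of the rise. The log2 fold change was 0.79 ± 0.17 (SE; limma adjusted p = 0.0079). It was 1.08 without couple 3 and 0.65 without couple 2, where it did not pass (limma adjusted p = 7.1e-04 and 0.11). Psmb9 also did not pass without the couple term (0.076) or without the intensity trend (limma adjusted p = 0.074).

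Psmb8 (LMP7) was at the edge of detection. Vehicle signals were 14.0, 4.97 and 31.3, of which 1 lay above background, and corticosterone signals were 84.6, 106 and 63.4, all above it. Every corticosterone array exceeded every vehicle array, and couple 3 again showed the smallest difference. Its mean signal lay below the filter, so it has no main test. With no filter its log2 fold change was 1.34 (limma adjusted p = 0.037), and that value depends on the pseudocount because the vehicle signals are so low.

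Psmb10 (MECL-1), whose promoter window holds 2 ISRE cores, had lower values with corticosterone but did not pass the test. Its signals were 594, 457 and 598 with vehicle and 452, 455 and 470 with corticosterone. The groups overlapped, since couple 2 was level while couples 1 and 3 were lower. The log2 fold change was −0.24 ± 0.11 (SE; limma adjusted p = 0.17), with a 95% interval from −0.47 to 2.0e-04. With each array centred on its median it passed as lower (−0.34, limma adjusted p = 0.049).

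Tap1, whose window overlaps that of Psmb9, did not pass the test. The brighter probe set gave 91.9, 156 and 75.6 with vehicle and 78.9, 172 and 140 with corticosterone. It was lower in couple 1 and higher in couples 2 and 3, and the groups overlapped. The log2 fold change was 0.21 ± 0.20 (SE; limma adjusted p = 0.51), with a 95% interval from −0.21 to 0.64. It turned to −0.02 without couple 3 (limma adjusted p = 0.95). The other Tap1 probe set was below the filter, at 30.2, 23.2 and 3.53 with vehicle and 8.53, 7.19 and 5.06 with corticosterone. The difference between the changes of Psmb9 and Tap1 was not tested.

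**Figure D3:**
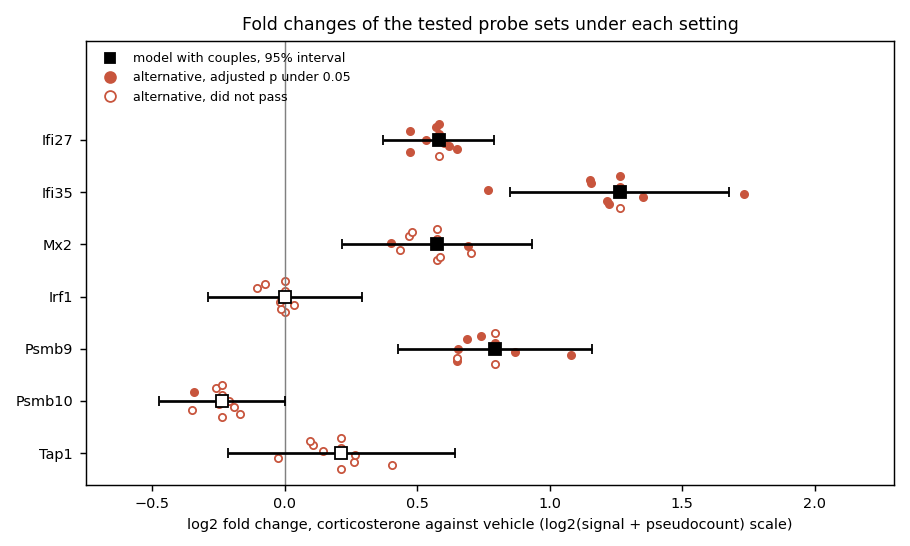
Log2 fold change of each of the 7 tested probe sets (corticosterone against vehicle); squares are the model with couples with its 95% interval, circles are the alternative settings, and filled symbols have an adjusted p under 0.05. Ifi35, Psmb9, Ifi27 and Mx2 keep a positive value throughout, Mx2 with most circles open, and Irf1 lies on both sides of 0.

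Over all probe sets, dim ones included, 5 of the 11 had every corticosterone signal above every vehicle signal, against 11.5% of all. Taking the brightest probe set of each gene, 5 of the 9 genes were higher in all 3 couples, against 26.5% of all 14217 genes so represented, and 21.0% of all genes were lower in all 3 couples. Ifi27, Ifi35, Mx2, Psmb8 and Psmb9 were those 5.

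Outside the 9 members, many other interferon-stimulated genes rose as well. Of 43 such genes measured 20 passed the filter, of which 11 rose, 0 fell (1 lower by raw limma p under 0.05) and 9 did not pass. Among all 9910 genes tested 11.7% rose and 7.77% fell. The median log2 fold change was 0.48 over the 20 tested and 0.38 over all 43, beside −0.0021 over all genes tested and 0.028 over all genes. The 11 that rose all had a mean vehicle signal above the filter, so none was tested through its corticosterone signals alone. Each gene is represented by its brightest probe set. Without couple 1 or couple 2, 5 and 4 of the 20 passed, and 2 passed without the couple term. Of all probe sets tested, 9.004%, 6.4% and 2.24% passed in either direction in these fits, beside 15.9% in the main fit.

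Ifitm2, a membrane protein that restricts viral entry, gave 185, 277 and 151 with vehicle and 499, 492 and 293 with corticosterone. The groups did not overlap, and the log2 fold change was 0.97 ± 0.14 (SE; limma adjusted p = 7.1e-04). Parp9 and Dtx3l, partners in an ADP-ribosyltransferase and ubiquitin ligase complex, rose by 0.96 and 0.87 (limma adjusted p = 8.1e-04 and 0.0012). Parp9 went from 129, 159 and 127 to 287, 374 and 239. Bst2 (tetherin), which holds budding virus at the cell surface, rose from 87.0, 122 and 113 to 284, 305 and 146, by 0.96 (limma adjusted p = 0.0084), with little of the rise in couple 3. Eif2ak2, the double-stranded RNA-activated kinase PKR, rose by 0.50 (limma adjusted p = 0.017), from 213, 252 and 235 to 320, 407 and 307. Parp14, Rig1 (the RNA sensor RIG-I), Ifi44l, Trim25, Ifi30 and Parp12 also rose, by 0.46 to 0.79, and are named to complete the count after their values were seen. Parp9 and Dtx3l were the 2 that passed without the couple term (limma adjusted p = 0.036 and 0.034). Bst2 and Eif2ak2 did not pass without couple 2 (limma adjusted p = 0.11 and 0.15), and Eif2ak2 also not without couple 1 (0.065). Ifitm2, Bst2 and Eif2ak2 did not pass without the couple term (limma adjusted p = 0.093, 0.10 and 0.14), and Bst2 and Eif2ak2 not without the filter (0.053 and 0.054).

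Dimmer genes of the same list lay below the filter and were not tested. Of these 23, 9 were higher in all 3 couples, against 23.8% of the 4307 genes below the filter. Among the 9 were the interferon-inducible GTPases Gbp2, Igtp and Irgm, named after their values were seen. Gbp2 had 11.4, 25.8 and 10.3 with vehicle and 75.9, 99.8 and 44.9 with corticosterone. Igtp had 3.37, 10.4 and 18.8 against 41.0, 63.4 and 38.3. Irgm had 23.6, 22.6 and 25.7 against 65.2, 71.8 and 51.4. Isg15, a ubiquitin-like protein and a standard interferon readout, had 8.28, 9.57 and 15.48 against 27.9, 49.5 and 6.09, at or below background on 4 of the 6 arrays.

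**Figure D4:**
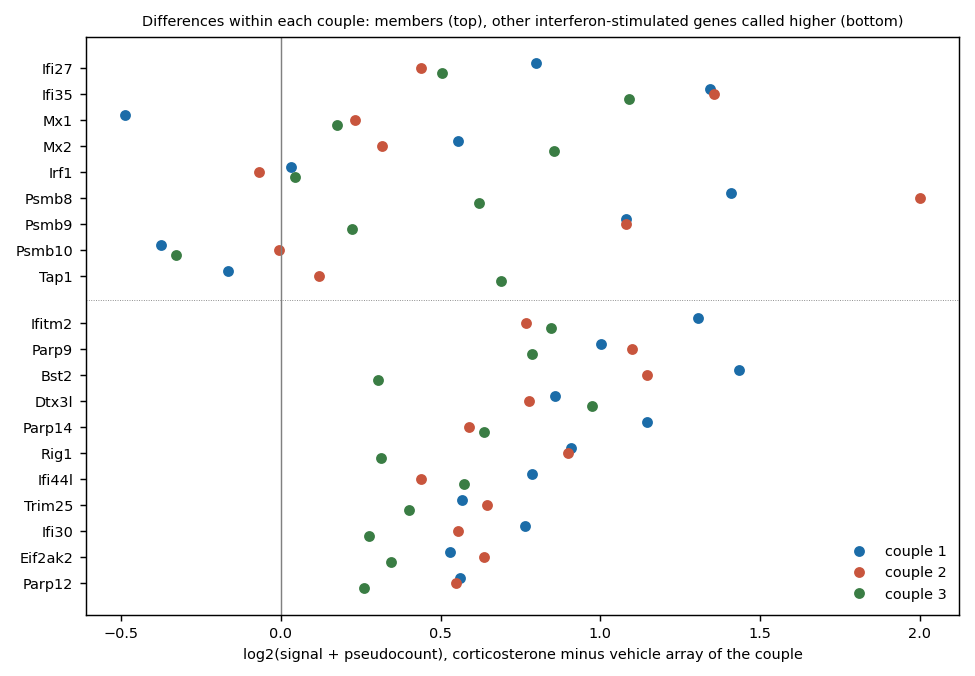
Difference of log2(signal + pseudocount) between the corticosterone and the vehicle array of each couple, for the 9 members (top, brightest probe set of each) and the 11 other interferon-stimulated genes called higher (bottom). The differences of the lower block all lie above 0, as the call favours, and couple 3 is the smallest in 7 of these 11 genes.

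The genes upstream passed about as often as all genes. Of 21 interferon ligands, receptors and signalling genes measured 15 were tested, of which 2 rose, 1 fell and 12 did not pass, with a median log2 fold change of 0.09. Of all genes tested 19.5% passed in either direction, so this count lies near the background. With median centring the list had 1 higher and 3 lower. The ligand Ifnb1 stayed at 2.59 to 7.03 and Ifng at 0.39 to 20.5, both below background on all 6 arrays. Ifnar2, the receptor chain that binds type I interferon, rose from 208, 303 and 313 to 295, 662 and 453, by 0.67 (limma adjusted p = 0.0069). Jak1 rose by 0.25 (limma adjusted p = 0.032), and Ptpn2, a phosphatase that dampens JAK and STAT signalling, fell (−0.30, limma adjusted p = 0.022). Ifnar2 did not pass without couple 2 (limma adjusted p = 0.10), Jak1 and Ptpn2 not without couple 1 (0.19 and 0.063) or couple 2 (0.15 and 0.18), and all 3 did not without the couple term. Jak1 also did not pass with median centring (limma adjusted p = 0.19).

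Ifnar1, Jak2, Irf9 and the feedback inhibitor Socs3 had log2 fold changes of 0.09, −0.04, 0.10 and −0.06 (limma adjusted p from 0.65 to 0.88). Ifngr1, the ligand-binding chain for interferon gamma, had 1624, 1492 and 1425 against 1261, 1320 and 1283 (−0.23, limma adjusted p = 0.072, and 0.022 as lower with median centring). Psmb6, RT1-A1 and RT1-A2 were not analysed here.

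MHC class I genes and the peptide loading machinery likewise passed about as often as all genes. Of 11 tested 2 rose, 0 fell (0 lower by raw limma p under 0.05) and 9 did not pass, beside the 11.7% of all genes that rose, with a median log2 fold change of 0.11. Of the 20 measured, dim ones included, 10 were higher and 1 was lower in all 3 couples, against 26.5% and 21.0% of all genes. RT1-M3-1, a class I gene outside the classical set, rose from 106, 191 and 131 to 319, 281 and 184 (0.76, limma adjusted p = 0.018), with overlapping groups. RT1-CE10 rose from 51.1, 63.5 and 52.6 to 113, 128 and 90.6 (0.72, limma adjusted p = 0.026), and was tested only because its corticosterone signals were high. Rat class I genes are near-identical copies, so which copy these probe sets measured is uncertain. Neither gene passed without couple 1, without couple 2, without the filter or without the couple term.

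B2m, the light chain of all class I molecules, had 11069, 11302 and 11472 against 11523, 11754 and 13414, a change of 0.11 ± 0.06 in log2 units (SE; adjusted p = 0.22 in limma) with a 95% interval from −0.01 to 0.24. Tap2, the partner of Tap1, had 50.7, 57.6 and 56.4 against 78.9, 100.5 and 72.1 (0.42, limma adjusted p = 0.18). Tapbp (tapasin) had a log2 fold change of 0.18 (limma adjusted p = 0.43). Of 8 MHC class II genes measured 3 were tested and 0 passed (1 higher and 0 lower by raw limma p under 0.05). Without couple 2, 1 of the 3 passed as lower.

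No gene of the standard proteasome passed as higher. Of 17 genes for standard 20S subunits, the PA28 activator and assembly factors, all of them tested, 0 rose (1 higher and 4 lower by raw limma p under 0.05) and the subunit Psma3 fell (−0.24, limma adjusted p = 0.048). Among all genes tested 11.7% rose and 7.77% fell, so in a list of 17 such small counts say little about the list. The median log2 fold change was −0.10, and 11 of the 17 were lower in all 3 couples, against 21.0% of all genes. The catalytic subunits Psmb5 and Psmb7, which Psmb8 and Psmb10 replace in the immunoproteasome, had −0.0068 and −0.04 (limma adjusted p = 0.96 and 0.67). The PA28 subunits Psme1 and Psme2, themselves known as interferon-inducible, had 0.19 and 0.14 (limma adjusted p = 0.068 and 0.23). With median centring 8 of the 17 passed as lower, with quantile normalization Psme1 passed as higher (limma adjusted p = 0.035) and Psma3 did not pass, and Psma3 was also lost without any 1 couple.

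**Figure D5:**
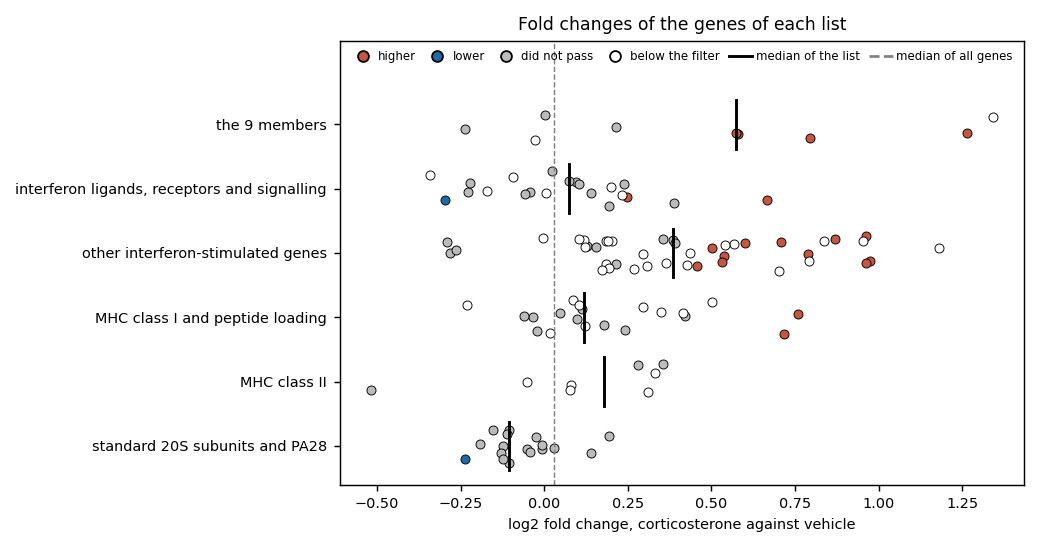
Log2 fold change of each gene (brightest probe set) of the 9 members and of 5 pathway lists; red and blue circles passed as higher or lower, grey ones did not pass, open ones lay below the filter, black bars are medians and the dashed line is the median of all genes (0.028). The list of other interferon-stimulated genes has its median at 0.38 and the standard proteasome list at −0.10.

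Markers of immune cells were low in both groups but not equal. The summed signal of 14 microglial and other blood-cell markers came to 398, 518 and 487 on the vehicle arrays against 636, 669 and 544, so every corticosterone sum exceeded every vehicle sum. Of the 14 markers 3 were tested and 0 passed in limma (0 also by raw p under 0.05). Itgam lay below background on all 6 arrays (2.92 to 7.73) and Ptprc reached 29.7 on 1 corticosterone array. Of the 14 markers 5 lay above background on all 6 arrays. Csf1r, 1 of these, had 38.9, 41.6 and 47.9 with vehicle and 58.3, 75.9 and 49.7 with corticosterone. In all 3 couples 4 of the 14 were higher and 0 were lower, against 26.5% and 21.0% of all genes. The summed signal of 8 endothelial markers was 135 to 191 with vehicle and 172 to 287 with corticosterone, and 0 of them passed the filter. Of the fibroblast-type markers tested, Acta2 and Col1a2 rose and Col1a1, Col3a1 and Cspg4 did not pass, as given above. The part of these 3 kinds of cells, and of the higher low-end signals on the corticosterone arrays, in the interferon-stimulated genes was not tested.

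The genes whose profiles over the 6 arrays were most like those of Ifi35 and Psmb9 were sought among the 9909 other genes tested, by the root mean square difference of log2 signals after centring each gene on its own mean. For Ifi35 they were the fibrillar collagen gene Col5a2 (0.098), Anxa11 (0.12) and the clock-related repressor Bhlhe41 (0.13). For Psmb9 they were Pllp (0.081), a membrane protein of myelin, Igsf1 (0.090) and Dlc1 (0.10). Col5a2 had 1084, 1438 and 778 against 2516, 3146 and 1821, with couple 2 highest and couple 3 lowest in each group, the same order as Ifi35. Anxa11 and Bhlhe41 had this order of couples as well, so it was not particular to the collagen gene. All 6 arrays share the treatment contrast, so this likeness is a description.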

How the data were processed

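RNA of 3 vehicle and 3 corticosterone samples was measured by 1-colour Affymetrix array. The authors deposited 1 linear signal intensity for each probe set, from MAS5 per the submitters' processing notes, with its version and settings not stated there. After trimming 2% of signals at either end the mean was 500.2 on each array, so arrays were scaled to a common mean. From these values, log2(signal + 28.6) was computed, the pseudocount being the 25th percentile of all values. Fold changes on this scale understate the change of low genes. Control probe sets (57) were left out, as were the 40% dimmest of the rest. The 18625 left were tested in R 4.3.3 by limma 3.58.1 (lmFit, eBayes with an intensity trend; two-sided; Benjamini-Hochberg over all of them), a procedure tested on simulated data. Each probe set had 2 residual degrees of freedom, and 9.16 more came from the spread of all probe sets tested. Standard errors therefore rest more on the other probe sets than on a probe set's own couples.

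The series design text states that the samples form couples, and titles number them alike. Deviations from group means correlated by 0.57, 0.52 and 0.35 across probe sets for couples 1, 2 and 3, and by −0.48 to 0.0034 for unlike numbers, so the couple was a term. Probe sets with 1 gene symbol in the platform annotation (20826) were named; those with several (436) or none (9780) were not. A gene of a list was represented by its brightest probe set. Named genes were all members, fixed key genes of 5 pathway lists, and up to 4 genes per list and direction with the largest change past the threshold; 6 further interferon-stimulated genes that rose and 3 dim ones were added. Members, lists and tests were chosen with earlier results of these data known. The number of arrays limits the precision. Promoter sequences are from RefSeq (GRCr8).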

Additional observations from a re-analysis of the deposited data

How the results depend on the processing

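The count of 4 changed member probe sets was 4 with a pseudocount of 1 or of 100. It was also 4 without the filter, where Psmb8 passed and Mx2 did not, and with median centring, as 3 higher and 1 lower, where Psmb10 passed as lower and Mx2 did not. It was 3 with quantile normalization. It was 0 without the couple as a term (3 higher by raw limma p under 0.05), 2 without the intensity trend and 2 under a stricter filter, which left out the dimmest 60% and tested 3 of them. With a couple left out it ranged from 2 to 3. The list of other interferon-stimulated genes held 11 changed genes of 20 tested, 2 without the couple term, 6 of 43 without the filter, 5 of 7 under the stricter filter, 7 without the trend, and 4 to 10 with a couple left out. The signalling list held 3 changed genes, 0 without the couple term (3 higher and 1 lower by raw limma p under 0.05), 0 without the trend (3 and 1), and 0 to 4 with a couple left out. The class I list held 2, and 0 without the couple term, 0 without the filter (both 3 higher by raw limma p under 0.05), 1 under the stricter filter, 1 without the trend, and 0 to 2 with a couple left out. The class II list held 0 or 1 with a couple left out. The standard proteasome list held 1, and 8 with median centring, 0 without the couple term (0 by raw limma p under 0.05), 0 without the filter (1 higher and 3 lower), 0 without the trend (0 and 1), and 0 with any couple left out. The share of all probe sets tested that passed in either direction also changed with the setting, from 15.9% in the main fit. It was 2.24% without the couple term, 6.78% without the trend and 5.998% without the filter. With couple 1, 2 or 3 left out it was 9.004%, 6.4% and 15.07%. It was higher under the stricter filter (19.4%) and with median centring (21.97%). Median centring moved the median of all probe sets tested to −0.11 from −0.0036 and the share of calls that were higher to 30.4% from 59.3%. Directions that turned belonged to probe sets that did not pass in the main fit, with main values from −0.0435 (Jak2) to 0.2142 (Tap1). With median centring Irf1 was −0.10, Irf9 −0.0021 and Ifnar1 −0.0125, and with quantile normalization Irf1 was −0.0733 and Psmb5 0.0081. With a couple left out Irf1 ranged from −0.0189 to 0.0368, Tap1 from −0.0239 to 0.404, Jak2 from −0.246 to 0.0823 and Psmb5 from −0.0563 to 0.059. Of 322 values recomputed for 35 named probe sets, 255 kept direction and side of the threshold, 52 lost their call, 4 gained one and 11 turned. Under the stricter filter several were not tested. Signals near background limit what can be read for Psmb8, Mx1 and the dimmer probe sets.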

Other observations

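The size of the rise differed between couples, among interferon-stimulated genes and among all genes that rose. Among the 11 other interferon-stimulated genes called higher, the median difference within the couple was 0.86, 0.65 and 0.40 on the log2 scale in couples 1, 2 and 3, and 7 of them had the smallest difference in couple 3. Among all 1158 genes called higher the medians were 0.73, 0.62 and 0.47, and 62.8% had their smallest difference in couple 3. Of the 4 member probe sets called higher, Psmb9 and Ifi35 had the smallest difference in couple 3, and Ifi27 and Mx2 in couple 2. The cause was not tested.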
